A study of Homo sapiens with 16 samples.

Results

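The genes described here are the aldo-keto reductases of the AKR1C family and the classical antioxidant targets of the transcription factor NRF2, measured in a pair of human colorectal cancer cell lines treated with itraconazole. The list held 10 genes: AKR1C1, AKR1C2, AKR1C3, AKR1B10, NQO1, GCLC, GCLM, TXNRD1, SRXN1 and HMOX1. They were matched by symbol to the Ensembl identifiers of the count files, and 9 of the 10 were found among 54127 identifiers per file. The symbol SRXN1 (sulfiredoxin) matched no identifier through the name table used, so no value is given for it. The members were selected on their higher counts with itraconazole than with DMSO in earlier results of these data, and their changes within each line are therefore given as a description without a test.

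HT55 and SW948 are established colorectal cancer lines, both grown as adherent cultures with fetal bovine serum and antibiotics. Each line was given the antifungal itraconazole at 5 µM or its solvent DMSO, and RNA was sequenced 6 d later in biological quadruplicate. This gave 4 groups of 4 libraries: HT55 DMSO, HT55 itraconazole, SW948 DMSO and SW948 itraconazole. Each line stands for 1 tumor, so a difference between them cannot be told apart from anything else in which the 2 lines differ.

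The libraries held 8269406 to 11110814 counts in genes. All 8 colorectal epithelium markers examined, among them EPCAM, CDX2 and VIL1, were detected in every group, with group means of at least 112 CPM (counts per 1000000 counts of the library, with library sizes scaled by the TMM method). With the drug 5 of them rose and 0 fell in HT55 by the edgeR test, while SW948 had 5 rises and 3 falls. On plain library totals HT55 had 2 rises and 2 falls and SW948 4 and 3. Of 7 markers of immune and stromal cells, 4 had means under 1 CPM in every group. The other three passed the test in at least 1 line. CD68, a lysosomal protein of macrophages that epithelial cells also make, had means of 30.5 CPM in HT55 DMSO, 46.1 in HT55 itraconazole, 20.5 in SW948 DMSO and 110 in SW948 itraconazole. COL1A1, a collagen chain, went from 3.17 to 10.1 CPM in SW948 (edgeR adjusted p = 1.5e-07) and from 0.57 to 0.97 in HT55, where the change did not pass (0.108). PDGFRB, a receptor of stromal cells, went from 1.04 to 2.49 CPM in HT55 (edgeR adjusted p = 0.00117) and from 0.55 to 0.26 in SW948, where the change did not pass (0.0616). The summed level of the 7 markers was 29.1 to 33.9 CPM in HT55 DMSO, 24.2 to 64.6 in HT55 itraconazole, 19.9 to 26.1 in SW948 DMSO and 118 to 122 in SW948 itraconazole, and the part of these markers in the members' values was not tested. PTPRC and CD3E, which define leukocytes and T cells, had means of at most 0.0257 CPM.

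NRF2, the product of NFE2L2, is held in the cytoplasm and marked for degradation by KEAP1, an adaptor of the CUL3 ubiquitin ligase. Electrophiles and oxidants that modify KEAP1 let NRF2 accumulate, pair with a small MAF protein and bind the antioxidant response element of its target genes. Its targets make glutathione (GCLC, GCLM), keep thioredoxin reduced (TXNRD1), reduce quinones (NQO1) and break down heme (HMOX1). The AKR1C enzymes reduce steroids, prostaglandins and reactive carbonyls with NADPH, and AKR1C1 and AKR1B10 are often used as markers of NRF2 activity in human cells.

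The AKR1C genes are near copies of each other, which limits what their counts mean. They lie together on chromosome 10 of GRCh37, with AKR1C1 at chr10:5005445-5025475 on the plus strand, AKR1C2 at chr10:5029967-5060223 on the minus strand and AKR1C3 at chr10:5077546-5149878 on the plus strand. The coding sequences of AKR1C1 and AKR1C2 were both 969 bases long and differed at 19 positions, an identity of 98.0%, with an identical run of 186 bases. AKR1C1 and AKR1C3 differed at 83 positions (91.4%). The stretch below is shown because no other 90 bases inside a coding exon of AKR1C1 hold more differences from AKR1C2. Untranslated parts were not searched for it. Of the 19 differences between AKR1C1 and AKR1C2, 10 fall within these 90 bases of coding exon 2 (coding positions 85 to 174, chr10:5008106-5008195 on the plus strand for AKR1C1, chr10:5043784-5043873 on the minus strand for AKR1C2, chr10:5138602-5138691 on the plus strand for AKR1C3). Capitals in the AKR1C1 and AKR1C2 lines mark the bases at which that pair differs, and capitals in the AKR1C3 line mark the 9 bases at which it differs from AKR1C1.
AKR1C1: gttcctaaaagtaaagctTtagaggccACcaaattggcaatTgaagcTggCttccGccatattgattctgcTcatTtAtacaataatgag
AKR1C2: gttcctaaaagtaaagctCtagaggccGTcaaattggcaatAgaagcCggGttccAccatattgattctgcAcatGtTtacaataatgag
AKR1C3: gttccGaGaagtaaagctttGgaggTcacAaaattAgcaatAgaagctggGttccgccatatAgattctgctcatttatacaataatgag

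The reads were 50 bases long, and reads aligned to more than 1 place were not counted for any gene. Every 50-base window of each main transcript was therefore searched in the GRCh37 genome and the annotated transcripts. In AKR1C2, 47.3% of the windows also occurred elsewhere, and 57.1% of those inside the coding part did. The shares were 36.5% and 54.3% in AKR1C1, 18.6% and 23.0% in AKR1C3, and 18.9% and 28.5% in AKR1B10. AKR1C1 and AKR1C2 shared 1447 windows with each other, and AKR1B10 shared 178 with its neighbor AKR1B15. GCLC, TXNRD1 and HMOX1 had no repeated window, and NQO1 (5.14%) and GCLM (5.05%) had them outside the coding part only. The counts of the 4 reductases thus come from part of each transcript. The share of alignments set aside as not unique, over all genes, was 26.3% to 27.1% in HT55 DMSO, 24.1% to 27.9% in HT55 itraconazole, 22.0% to 23.6% in SW948 DMSO and 25.3% to 26.2% in SW948 itraconazole. The part of this difference in the AKR1C values was not tested.

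**Figure D1:**
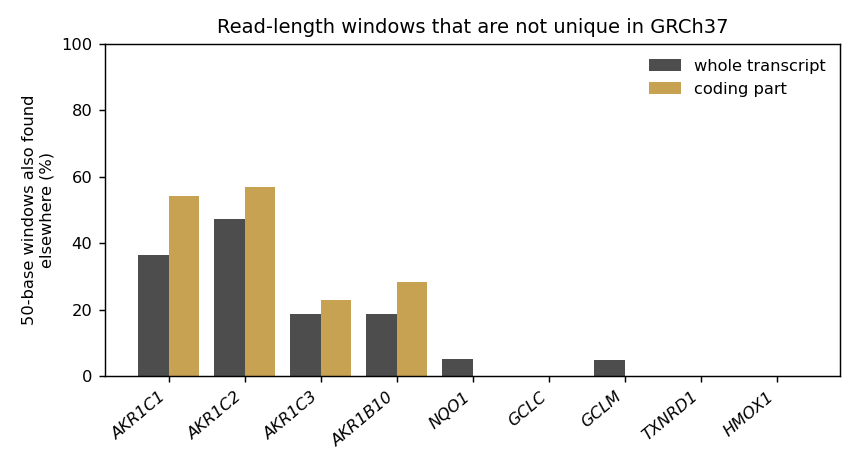
Bars give the share of 50-base windows (vertical axis, %) of each member's main transcript, and of its coding part, that also occur elsewhere in the GRCh37 genome or transcripts. AKR1C1 and AKR1C2 stand highest, with 54.3% and 57.1% of coding windows not unique, and GCLC, TXNRD1 and HMOX1 are at 0.

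All 9 matched genes passed the filter on low counts. In these bulk RNA samples, a change in the number of cells that make a transcript and a change in the amount per cell cannot be told apart. Each one was higher in all 4 itraconazole libraries than in all 4 DMSO libraries of its line, in HT55 and in SW948. The same held for 23.5% of all 13249 genes tested in HT55 and for 35.6% in SW948. By edgeR's quasi-likelihood test at an adjusted p under 0.05, 27.4% of all genes increased and 26.1% decreased in HT55. The corresponding shares in SW948 were 38.0% and 38.3%. The 9 members all rose by this rule in both lines, which their selection on these comparisons does not allow to be read as a result. Their median log2 fold change was 1.51 in HT55 and 2.90 in SW948, against -0.01 and 0 over all genes. In HT55, 6 of the 9 rose over 2-fold and 1 over 16-fold, whereas in SW948 all 9 rose over 2-fold and 2 over 16-fold. Scaling by plain library totals moved the median of all genes to -0.17 in HT55 and -0.36 in SW948. It also moved the split of all genes called to 2469 up and 5026 down in HT55, from 3632 and 3462, and to 3179 up and 6974 down in SW948, from 5033 and 5080. On that scale the members' changes stayed above 0, from 0.32 for GCLM to 4.53 for AKR1C1 in HT55 and from 0.71 for NQO1 to 5.02 for AKR1C1 in SW948.

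**Figure D2:**
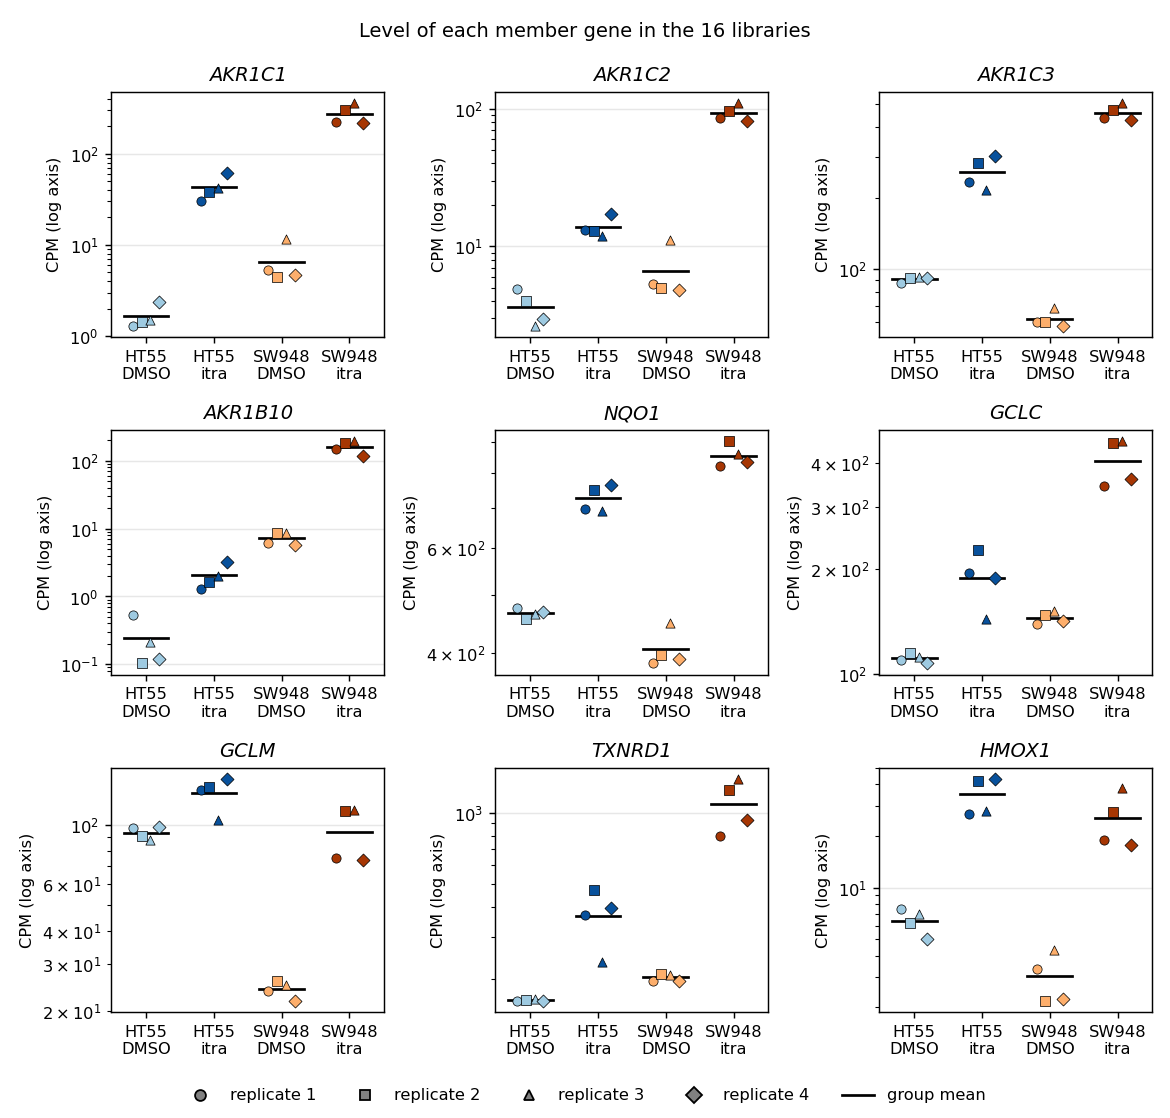
Each panel shows 1 member gene, with its level in CPM on a log axis in the 4 groups; points are single libraries, marker shapes are replicate numbers and lines are group means. In every panel the treated libraries of a line lie above its DMSO libraries, and in SW948 DMSO the library of replicate 3 stands above the others for AKR1C1 (11.6 CPM) and AKR1C2 (11.1 CPM).

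AKR1C1, a hydroxysteroid dehydrogenase that inactivates progesterone, showed the largest fold change of the 9 genes in both lines. In HT55 DMSO its 4 libraries held 1.30, 1.44, 1.49 and 2.37 CPM, from 12, 14, 14 and 20 counts. In HT55 itraconazole they held 30.4, 37.5, 41.6 and 60.9 CPM. The gene was thus barely detected in untreated HT55 and rested on 256 to 490 counts per library after treatment, a log2 fold change of 4.69 ± 0.35 (SE), or 25.9-fold. In SW948 DMSO the libraries held 5.30, 4.45, 11.6 and 4.62 CPM, and in SW948 itraconazole 221, 297, 356 and 218 CPM. The change in SW948 was 5.39 ± 0.26, or 42.0-fold, with the groups far apart although 1 DMSO library, replicate 3, stood well above the other three. Without that library the change was 5.82. Among all 13249 genes ordered by fold change, AKR1C1 was number 5 from the top in HT55 and number 17 in SW948.

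AKR1C2, whose enzyme reduces dihydrotestosterone, had 4.87, 4.01, 2.65 and 2.97 CPM in HT55 DMSO and 13.1, 13.0, 11.9 and 17.3 CPM in HT55 itraconazole. In SW948 DMSO it had 5.38, 5.02, 11.1 and 4.86 CPM, and in SW948 itraconazole 86.2, 95.7, 109 and 80.9 CPM. The treated libraries of HT55 stayed close to the highest SW948 DMSO library, while those of SW948 lay well above all others. The log2 fold change was 1.91 ± 0.25 in HT55 and 3.82 ± 0.20 in SW948, and 4.19 in SW948 without DMSO replicate 3.

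AKR1C3, a prostaglandin F synthase that also makes testosterone from androstenedione, had from 87.2 to 92.7 CPM in HT55 DMSO, and 235, 281, 216 and 302 CPM in HT55 itraconazole. SW948 DMSO libraries held 60.0, 59.7, 68.6 and 57.7 CPM and SW948 itraconazole libraries 437, 471, 504 and 430 CPM. SW948 therefore started below HT55 and ended above it, with no library of either treatment out of this order. Its log2 fold change was 1.51 ± 0.09 in HT55 and 2.90 ± 0.10 in SW948, the smallest of the 3 AKR1C genes in both lines.

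As the 3 genes changed by different amounts, the make-up of their summed counts changed with treatment. AKR1C1 held 1.39% to 2.45% of the AKR1C1, AKR1C2 and AKR1C3 counts in HT55 DMSO and 10.9% to 16% in HT55 itraconazole. In SW948 its share went from 6.43% to 12.7% in DMSO up to 29.7% to 36.7% with the drug. The ratio of AKR1C1 to AKR1C2 counts, the pair that shares the most sequence, was 0.27 to 0.80 in HT55 DMSO and 0.89 to 1.05 in SW948 DMSO, and it was 2.33 to 3.53 and 2.56 to 3.26 in the treated groups. These are shares of counts, not scaled for length or for how much of each transcript is unique, so they can be compared between libraries and not between genes. The 3 genes together made up 93.4 to 97.0 CPM in HT55 DMSO, 269.8 to 381 CPM in HT55 itraconazole, 67.2 to 91.4 CPM in SW948 DMSO and 729 to 969.9 CPM in SW948 itraconazole.

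**Figure D3:**
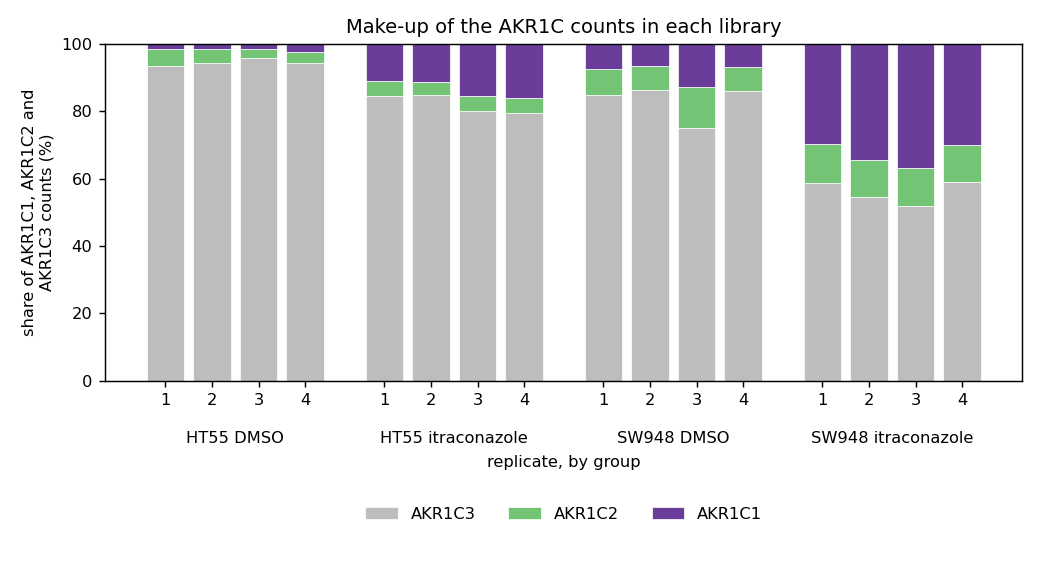
Stacked bars give, for each of the 16 libraries, the share (%) of the summed AKR1C1, AKR1C2 and AKR1C3 counts that each gene holds. The AKR1C1 part is 1.39% to 2.45% in HT55 DMSO and 29.7% to 36.7% in SW948 itraconazole, and SW948 DMSO replicate 3 has the largest AKR1C1 part of its group (12.7%).

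The promoters of AKR1C1 and AKR1C2 are as alike as their coding parts. RefSeq promoter windows of GRCh38.p14, the 250 bases before each transcription start, were compared for the members that had an entry, which AKR1B10 and HMOX1 did not. AKR1C1 and AKR1C2 agreed at 245 of 246 aligned bases (99.6%) and AKR1C1 and the first of 2 listed starts of AKR1C3 at 185 of 241 (76.8%), with 185 of 234 (79.1%) for its second start. The AKR1C1 window, chr10:4963165-4963414 on the plus strand, is printed because the same run of bases stands before both genes, with the last base, in capitals, as the only aligned difference.
AKR1C1 promoter: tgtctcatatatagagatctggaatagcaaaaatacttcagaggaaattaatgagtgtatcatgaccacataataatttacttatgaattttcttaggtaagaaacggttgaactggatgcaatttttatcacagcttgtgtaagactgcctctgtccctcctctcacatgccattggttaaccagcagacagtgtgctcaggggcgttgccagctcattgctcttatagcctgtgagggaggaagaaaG

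Each window was searched on both strands for the core of the antioxidant response element, TGACNNNGC, in which N is any base, and for the AP-1 site TGACTCA, which can overlap it. Of 35116 RefSeq promoter windows of this length, 10.9% held the core and 4.20% the AP-1 site. GCLM held 1 core match, 34 bases before its start, in the window chr1:93909431-93909680, which is printed from the minus strand. The match reads as the core on the strand opposite to the printed one. TXNRD1 has 2 listed starts, with 1 match each, 99 bases before the start on the plus strand in chr12:104215529-104215778 and 102 bases before it on the minus strand in chr12:104286782-104287031. These windows are printed with the matches in capitals. The windows of AKR1C1, AKR1C2, AKR1C3, NQO1, GCLC and SRXN1 did not hold these letters, which says nothing of sites farther away, and none of the windows held the AP-1 site.
GCLM promoter: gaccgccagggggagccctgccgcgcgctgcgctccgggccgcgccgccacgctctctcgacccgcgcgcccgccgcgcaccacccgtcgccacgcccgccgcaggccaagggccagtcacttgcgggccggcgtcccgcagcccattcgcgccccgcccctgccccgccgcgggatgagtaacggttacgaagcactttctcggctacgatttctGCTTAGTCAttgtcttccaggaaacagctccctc
TXNRD1 promoter, first start: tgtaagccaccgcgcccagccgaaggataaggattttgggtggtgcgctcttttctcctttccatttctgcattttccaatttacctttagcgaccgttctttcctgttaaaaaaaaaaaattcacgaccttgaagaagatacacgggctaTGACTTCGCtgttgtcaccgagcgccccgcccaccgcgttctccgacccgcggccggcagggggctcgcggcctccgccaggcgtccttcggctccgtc
TXNRD1 promoter, second start: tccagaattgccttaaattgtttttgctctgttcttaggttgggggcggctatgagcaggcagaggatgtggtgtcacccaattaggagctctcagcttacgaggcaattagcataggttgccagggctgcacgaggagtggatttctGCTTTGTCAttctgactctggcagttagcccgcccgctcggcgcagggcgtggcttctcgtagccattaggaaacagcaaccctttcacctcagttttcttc

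AKR1B10 (chr7:134212319-134226164, GRCh37), which reduces retinal and lipid aldehydes, was the member with the widest difference between the lines. HT55 DMSO libraries held 5, 1, 2 and 1 counts, or 0.54, 0.10, 0.21 and 0.12 CPM, and HT55 itraconazole libraries 1.31, 1.65, 2.0 and 3.23 CPM. SW948 DMSO libraries held 6.18, 8.71, 8.51 and 5.70 CPM and SW948 itraconazole libraries 147, 184, 195 and 116 CPM. Untreated SW948 thus lay above treated HT55 in every library. The log2 fold change was 2.99 ± 0.57 in HT55, where it rests on 9 DMSO counts in all, and 4.47 ± 0.18 in SW948. Leaving out HT55 DMSO replicate 1, which gave 5 of those 9 counts, moved the HT55 change to 3.69.

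Among the glutathione genes, GCLC (chr6:53362139-53481768), the catalytic subunit of glutamate-cysteine ligase, had 107 to 115 CPM in HT55 DMSO and 144 to 227 in HT55 itraconazole, and 139 to 151 in SW948 DMSO and 344 to 463 in SW948 itraconazole. Its log2 fold change was 0.76 ± 0.11 in HT55 and 1.49 ± 0.11 in SW948. GCLM (chr1:94350755-94375012), the modifier subunit of the same enzyme, had 97.3, 91.2, 88.2 and 98.1 CPM in HT55 DMSO and 135, 139, 104 and 149 CPM in HT55 itraconazole. It was far lower in SW948 DMSO, at 23.7, 25.8, 25.1 and 21.7 CPM, and reached 75.3, 113, 114 and 73.7 CPM in SW948 itraconazole. The treated SW948 libraries thus lay on both sides of the untreated HT55 ones, 2 below and 2 above. GCLM changed by 0.49 ± 0.13 in HT55 on the log2 scale, and SW948 showed 1.96 ± 0.14.

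TXNRD1 (chr12:104609557-104744085), the cytosolic reductase of thioredoxin, was tightly grouped without the drug, at 162 to 165 CPM in HT55 and 197 to 211 CPM in SW948. HT55 itraconazole libraries held 371, 473, 236 and 396 CPM and SW948 itraconazole libraries 799, 1240, 1385 and 928 CPM. The spread was wider with the drug in both lines, and the lowest HT55 treated library, replicate 3, was still above all DMSO libraries. The log2 fold change was 1.17 ± 0.17 in HT55, or 1.34 without replicate 3, and 2.42 ± 0.17 in SW948. NQO1 (chr16:69740899-69760571), which reduces quinones, changed least among the 9 genes in SW948. It had 456 to 474 CPM in HT55 DMSO, 692 to 764 in HT55 itraconazole, 384 to 449 in SW948 DMSO and 820 to 905 in SW948 itraconazole, with changes of 0.64 ± 0.07 and 1.08 ± 0.07.

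HMOX1 (chr22:35776354-35790207), which opens the heme ring and releases iron, was low without the drug. HT55 DMSO libraries held 7.47, 6.18, 7.01 and 4.98 CPM and SW948 DMSO libraries 3.37, 2.18, 4.34 and 2.24 CPM. With itraconazole HT55 libraries held 26.8, 41.8, 28 and 43.1 CPM and SW948 libraries 18.8, 27.5, 37.9 and 17.6 CPM. It was the only member besides GCLM whose mean was higher in treated HT55 than in treated SW948, with changes of 2.44 ± 0.25 in HT55 and 3.06 ± 0.27 in SW948.

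**Figure D4:**
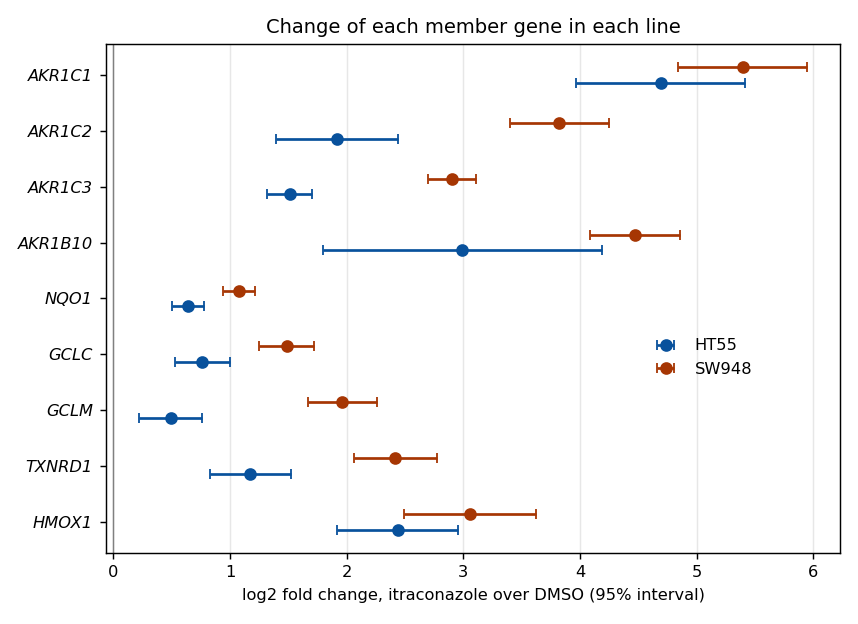
Points give the log2 fold change of each member, itraconazole over DMSO, in HT55 and SW948, and bars give the 95% interval from the edgeR fit. The genes were selected on these changes, so the intervals show precision and are no test against 0; the SW948 point lies to the right of the HT55 point for each gene, from AKR1C1 (5.39 against 4.69) to NQO1 (1.08 against 0.64).

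In 3 of the 4 groups the same library was the highest or the lowest for most members. In SW948 itraconazole, replicate 3 had the highest value of its group for 8 of the 9 genes and replicate 4 the lowest for 6. In HT55 itraconazole, replicate 4 was highest for 7 and replicate 3 lowest for 6. In SW948 DMSO, replicate 3 was highest for 6 of the 9 and lowest for none. HT55 DMSO showed no such library, with each of the 4 replicates highest for 1 to 4 genes and lowest for 2 or 3. The labels do not say whether libraries that share a number in different groups were handled together, and a shared replicate effect was not tested for the members.

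Whether the 2 lines responded to different degrees was asked by the interaction term of the fit, the SW948 change minus the HT55 change. It was above 0 for all 9 members and passed an adjusted p under 0.05 for 6, against 24.8% of all genes above 0 and 29.1% below 0 by the same test. On plain totals these genes split into 2295 above and 4929 below, from 3292 and 3849. This background also holds genes that fell with the drug, whereas the members were chosen for rising. The 6 were AKR1C2, AKR1C3, NQO1, GCLC, GCLM and TXNRD1. AKR1C2 showed the largest difference, 1.91 ± 0.34 (edgeR adjusted p = 9.9e-05), followed by GCLM at 1.47 ± 0.19 (edgeR adjusted p = 3.2e-06). AKR1C3 differed by 1.39 ± 0.13 (edgeR adjusted p = 8.1e-08) and TXNRD1 by 1.24 ± 0.23 (edgeR adjusted p = 0.00017). GCLC differed by 0.72 ± 0.16 and NQO1 by 0.44 ± 0.09, with edgeR adjusted p-values of 0.00071 and 0.00051. These 6 calls held under each of the 23 alternatives run for them.

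For the other three the difference did not pass. It was 0.70 for AKR1C1 (95% interval -0.41 to 1.81, edgeR adjusted p = 0.277), 1.48 for AKR1B10 (-0.34 to 3.30, adjusted p = 0.16) and 0.62 for HMOX1 (-0.16 to 1.40, adjusted p = 0.171). Each interval includes 0 and also values above 1. The AKR1C1 difference was 1.13 without SW948 DMSO replicate 3, with an edgeR adjusted p of 0.0433, and it also passed with the replicate block (0.0323) and without the filter on low counts (0.0115). AKR1B10 passed with DESeq2 (0.0321) and with the block (0.0477), and HMOX1 without the filter (0.0202). The interaction is built from the within-line changes on which the genes were chosen, so its p-values are not fully independent of that choice.

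The lines already differed before treatment, in both directions. SW948 DMSO was higher than HT55 DMSO for AKR1B10 (log2 difference 4.81 ± 0.42), AKR1C1 (1.98 ± 0.42), AKR1C2 (0.85 ± 0.27) and GCLC (0.38 ± 0.11). It was lower for GCLM (-1.96 ± 0.14), HMOX1 (-1.08 ± 0.31), AKR1C3 (-0.56 ± 0.09) and NQO1 (-0.20 ± 0.07). The edgeR adjusted p ran from 1.4e-10 for GCLM to 0.00905 for NQO1 among these 8, and TXNRD1 did not pass (0.32 ± 0.17, adjusted p = 0.089), although its 4 SW948 libraries all lay above the HT55 ones. Of all genes, 38.2% were higher in SW948 and 37.7% lower, so 4 and 4 of 9 members is close to that background. On plain totals all genes called split into 6134 higher and 3919 lower, from 5059 and 4996, TXNRD1 passed and the NQO1 difference was near 0. For AKR1C1 and AKR1C2 the difference was 1.55 and 0.48 without SW948 DMSO replicate 3, and the AKR1C2 libraries of the 2 lines overlapped.

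With itraconazole, 7 of the 9 members were higher in SW948 than in HT55 and 1 was lower, against 39.3% of all genes higher and 41.5% lower. The members were chosen on rises that use these same treated libraries, so these counts and the p-values below are not fully independent of that choice. The log2 difference was 6.29 ± 0.22 for AKR1B10, 2.76 ± 0.19 for AKR1C2, 2.68 ± 0.22 for AKR1C1, 1.56 ± 0.17 for TXNRD1, 1.11 ± 0.11 for GCLC, 0.83 ± 0.09 for AKR1C3 and 0.24 ± 0.06 for NQO1. The largest edgeR adjusted p among these 7 was 0.00232, for NQO1. GCLM was lower in SW948 (-0.49 ± 0.13, edgeR adjusted p = 0.0019), with overlapping libraries. HMOX1 did not pass (-0.46 ± 0.22, adjusted p = 0.0561) but passed under 6 of 16 alternatives. AKR1C3 and NQO1 were thus lower in SW948 without the drug and higher with it.

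The order of the 4 groups by mean level followed from these differences. SW948 itraconazole was highest for 7 members, and HT55 itraconazole was highest for GCLM and HMOX1. HT55 DMSO was lowest for AKR1C1, AKR1C2, AKR1B10, GCLC and TXNRD1, and SW948 DMSO was lowest for the other four. In the middle of the order, the GCLM libraries of HT55 DMSO lay between those of SW948 itraconazole, with means of 93.7 ± 4.78 and 94.1 ± 22.6 CPM (SD, n = 4 each).

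The regulators of the pathway were read in the same fit, and here both treatment comparisons were tested. Like the other gene lists, the regulators were chosen with earlier results of these data known, so these tests are not fully independent of those results. NFE2L2, which encodes NRF2, had 202, 225, 213 and 235 CPM in HT55 DMSO and 163, 159, 188 and 174 CPM in HT55 itraconazole, a fall of -0.36 ± 0.09 (edgeR adjusted p = 0.0016). In SW948 it went from a mean of 214 to 231 CPM, a change of 0.11 ± 0.08 that did not pass (adjusted p = 0.235) and that became a called -0.26 on plain totals. The mRNA of NRF2 itself was therefore not among the genes that rose. KEAP1, its inhibitor, changed by 0.03 ± 0.08 in HT55 (adjusted p = 0.73) and by 0.19 ± 0.08 in SW948 (edgeR adjusted p = 0.0351), the latter turning to -0.17 on plain totals.

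Other regulators moved more. The small MAF genes, whose proteins are the DNA-binding partners of NRF2, rose in both lines, MAFF by 1.38 ± 0.24 and 2.70 ± 0.21, MAFG by 0.63 ± 0.09 and 1.27 ± 0.09 and MAFK by 0.67 ± 0.14 and 1.08 ± 0.12 in HT55 and SW948. BACH1, a repressor that competes with NRF2 at HMOX1, rose by 0.70 ± 0.10 and 0.86 ± 0.09. SQSTM1, which can bind KEAP1 and is itself an NRF2 target, went from 485 to 499 CPM in HT55 DMSO to 676 to 1057 CPM with the drug, and from 527 to 584 CPM in SW948 DMSO to 2094 to 2983 CPM, changes of 0.87 ± 0.12 and 2.23 ± 0.12. CUL3 rose in SW948 (1.05 ± 0.07) and changed by 0.05 ± 0.07 in HT55. NFE2L1, a relative of NRF2, fell in SW948 (-0.45 ± 0.07) and changed by -0.02 ± 0.06 in HT55, and RBX1 passed in neither line (-0.45 ± 0.37 and -0.51 ± 0.30). RBX1 had few counted reads, with group means of 1.22 to 3.14 CPM, and its transcript was not among those searched for repeated windows. On plain totals its SW948 change was -0.87 and passed (edgeR adjusted p = 0.0128). Among the changes called rising or falling in this paragraph on the TMM scale, the largest edgeR adjusted p was 0.00068, for MAFK in HT55.

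Over the 46 other genes of the pathway that were listed and tested, 21 rose, 8 fell and 17 did not pass in HT55. In SW948, 34 rose, 7 fell and 5 did not pass. The rising shares of 21 and 34 of 46 stand beside the 27.4% and 38.0% of all genes, and the median log2 fold changes of 0.25 and 1.07 beside -0.01 and 0. This list was chosen with earlier results of these data known, so the comparisons with all genes are a description and no independent test. In both lines together 20 of the 46 rose and 3 fell, beside 19.0% and 18.3% of all genes that did so, and the interaction was above 0 for 26 and below 0 for 4. Plain totals gave 19 rises and 12 falls for HT55, with 30 and 11 for SW948.

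**Figure D5:**
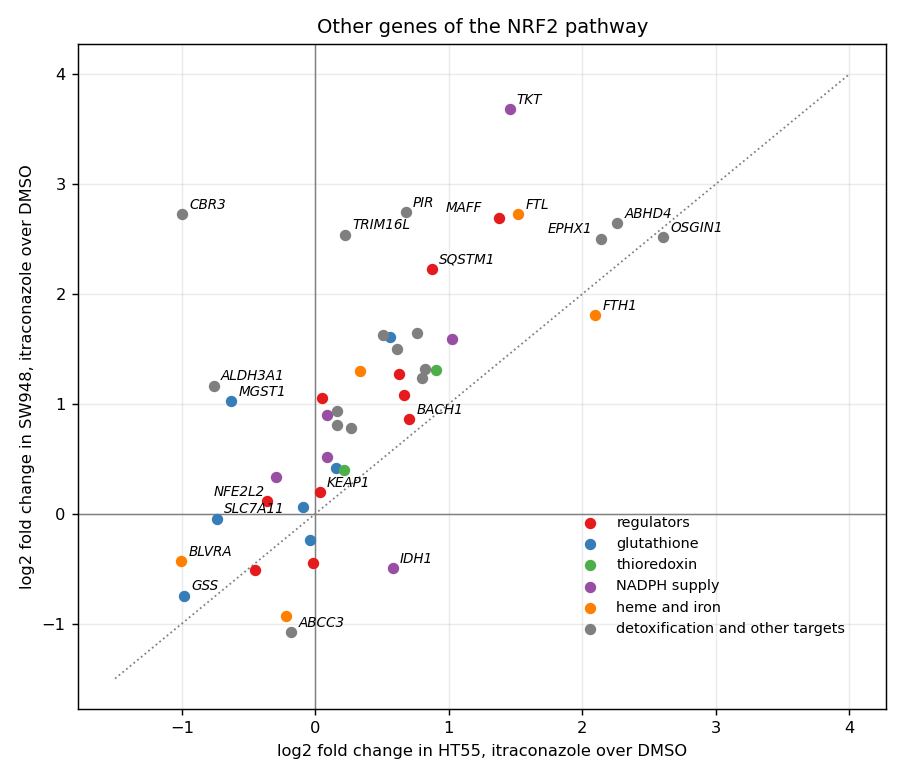
Each point is 1 of the 46 other NRF2 pathway genes, with its log2 fold change in HT55 on the horizontal and in SW948 on the vertical axis, colored by role; the dotted line marks equal change. The interaction passed above 0 for 26 points and below 0 for 4, TKT is highest (3.68 in SW948 and 1.46 in HT55), and ALDH3A1 and MGST1 lie to the left of 0 in HT55 and above 0 in SW948.

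By role, 8 of 16 detoxification enzymes and other targets rose in HT55 and 14 of 16 in SW948. The rises in HT55 and SW948 were 5 and 7 of 10 regulators, 1 and 3 of 7 glutathione genes, 3 and 5 of 6 NADPH suppliers, 3 and 3 of 5 heme and iron genes, and 1 and 2 of 2 thioredoxin genes. The falls were 2 and 1 for detoxification and other targets, 1 and 1 for regulators and 3 and 2 for glutathione. They were 1 and 1 for NADPH supply, 1 and 2 for heme and iron and 0 and 0 for thioredoxin. Of all genes, 27.4% rose and 26.1% fell in HT55, and 38.0% and 38.3% in SW948. With so few genes per role, no role is read as a result. The 5 pathway genes outside the regulators with the largest rise in HT55 were OSGIN1 (2.61 ± 0.28), a growth inhibitor induced by oxidative stress, the lipase ABHD4 (2.26 ± 0.20), EPHX1 (2.14 ± 0.13), which hydrolyzes epoxides, and the ferritin chains FTH1 (2.10 ± 0.20) and FTL (1.52 ± 0.19). In SW948 they were TKT (3.68 ± 0.20), PIR (2.74 ± 0.13), FTL (2.73 ± 0.20), the carbonyl reductase CBR3 (2.72 ± 0.21) and ABHD4 (2.65 ± 0.20). TKT, the transketolase of the pentose phosphate pathway that supplies NADPH, went from 183 to 218 CPM in SW948 DMSO to 1979 to 3168 CPM in SW948 itraconazole. CBR3 was at 0.12 to 0.54 CPM in the 8 HT55 libraries, where its change of -1.0 ± 0.45 did not pass (edgeR adjusted p = 0.156). All 10 rises named here had an edgeR adjusted p of at most 3e-06.

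Some genes of the pathway fell. The 5 largest falls in HT55 were BLVRA (-1.01 ± 0.20), which reduces biliverdin, the glutathione synthetase GSS (-0.98 ± 0.08), ALDH3A1 (-0.76 ± 0.18), the cystine transporter SLC7A11 (-0.74 ± 0.14) and the glutathione transferase MGST1 (-0.63 ± 0.09). In SW948 they were the exporter ABCC3 (-1.08 ± 0.08), the last enzyme of heme synthesis FECH (-0.93 ± 0.13), GSS (-0.75 ± 0.09), IDH1 (-0.50 ± 0.07) and BLVRA (-0.43 ± 0.13). Their edgeR adjusted p-values were at most 0.0062, the value of BLVRA in SW948. Glutathione synthesis was thus split, as both subunits of the ligase were higher with the drug while GSS was lower in both lines and SLC7A11 was lower in HT55 and changed by -0.04 ± 0.13 in SW948. On plain totals the SLC7A11 change in SW948 was -0.41 and passed (edgeR adjusted p = 0.0182). MGST1, ALDH3A1 and PGD, an enzyme of the pentose phosphate pathway named here after its values were seen, fell in HT55 and rose in SW948, and IDH1 did the reverse. The interaction passed for these 4 (edgeR adjusted p of at most 2e-05), and the PGD rise in SW948 (0.33 ± 0.07) was -0.03 on plain totals.

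Of the other aldo-keto reductases, 6 of the 8 matched genes passed the filter, and 3 rose in each line with none falling, beside 27.4% and 38.0% of all genes that rose. On plain totals 2 rose in each line, as AKR7A2 in HT55 (adjusted p = 0.222 by edgeR) and AKR1A1 in SW948 (0.0817) lost their calls. AKR1B1, the aldose reductase, rose by 2.77 ± 0.70 in HT55 (edgeR adjusted p = 0.00258) and by 3.0 ± 0.62 in SW948 (edgeR adjusted p = 0.00022), from 8 and 11 counts in all in the DMSO groups to 56 and 67. In HT55 itraconazole its 4 libraries held 1, 5, 29 and 21 counts, against 0, 2, 3 and 3 in HT55 DMSO. Replicates 3 and 4 held most of these counts, and replicate 1 (0.12 CPM) lay within the DMSO range of 0 to 0.36 CPM. AKR1B15, the neighbor that shares windows with AKR1B10, rose by 4.73 ± 0.33 in SW948, from 14 counts in the 4 DMSO libraries to 278, and had 2 and 9 counts in the HT55 groups. Neither AKR1B1 nor AKR1B15 passed the filter in a fit of only the 8 HT55 libraries. Both were so low in DMSO that a fall could hardly have been called, so their rises say little about the direction of this list. AKR1E2 (0.83 ± 0.25) and AKR7A2 (0.34 ± 0.10) rose in HT55 only by this rule, with interactions that did not pass (edgeR adjusted p = 0.31 and 0.262), and AKR1A1 rose in SW948 (0.54 ± 0.09) with an interaction of 0.49 that passed (edgeR adjusted p = 0.003). AKR1C4, the liver member of the AKR1C cluster, stayed below the filter, with 7, 11, 8 and 2 counts over the 4 libraries of the HT55 DMSO, HT55 itraconazole, SW948 DMSO and SW948 itraconazole groups, and AKR1D1 was below it too.

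Antioxidant genes that are not usual NRF2 targets moved in both directions. Of 15 tested in HT55, 5 rose and 7 fell, beside 27.4% and 26.1% of all genes, and in SW948 the same list gave 5 rises and 3 falls, beside 38.0% and 38.3%. The median changes were -0.09 and 0.10. On plain totals the counts were 4 rises and 8 falls in HT55 and 3 rises and 8 falls in SW948, so the balance in SW948 turned over. The largest rises were the glutathione peroxidases GPX3 (1.65 ± 0.26 and 2.15 ± 0.16 in HT55 and SW948) and GPX4 (1.13 ± 0.11 and 1.18 ± 0.11) and the glutaredoxin GLRX (0.62 ± 0.14 and 0.81 ± 0.14). The largest falls were the methionine sulfoxide reductase MSRA (-0.82 ± 0.21 and -2.33 ± 0.23), followed in HT55 by GLRX2 (-0.54 ± 0.19) and PRDX5 (-0.40 ± 0.09) and in SW948 by the peroxiredoxins PRDX2 (-0.65 ± 0.07) and PRDX4 (-0.44 ± 0.08). The edgeR adjusted p of these changes was at most 0.0228, the value of GLRX2. The lower median of this list stands beside those of the NRF2 pathway list, 0.25 and 1.07, and no test of that difference was made.

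The profile of AKR1C1 over the 16 libraries was compared with that of each gene that is not a member. Likeness was the root mean square difference of the log2 levels, each centered on its own mean, among 9222 genes with a mean of at least 3 on the log2 CPM scale. The nearest of these was DUSP5 (0.64), a nuclear phosphatase of ERK kinases, followed by the nuclear receptor NR4A1 (1.06), the protease PRSS22 (1.09), the aldolase ALDOC (1.12) and the metalloproteinase inhibitor TIMP2 (1.22). Measured the same way, the member AKR1C2 stood at 1.15, nearer than TIMP2, and the other members between 1.75 and 2.58. DUSP5 changed by 3.89 in HT55 and 4.52 in SW948 and was 2.18 higher in SW948 DMSO than in HT55 DMSO, values near those of AKR1C1 (4.69, 5.39 and 1.98). DUSP5 was picked for its nearness over these same libraries, so this likeness follows from the search and is no separate result.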

How the data were processed

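The authors sequenced Illumina TruSeq libraries from 1 end, with reads of 50 bases. Per the submitters' processing notes, reads were aligned to hg19 with TopHat and counted per Ensembl gene with HTSeq (DESeq is also named); versions, annotation release and strand setting are not given in the sources used here. The deposited values are raw read counts per gene, 16 files of 1 library each, with 5 closing totals outside genes. Those totals (28.2% to 32.9% of each file's total) were left out of library sizes and tests. The members and gene lists were chosen with earlier results of these data known.

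Counts were filtered (filterByExpr, 13249 genes kept), scaled by TMM and fitted with edgeR 4.0.16 (quasi-likelihood, R 4.3.3) in 1 model of the 4 groups, with Benjamini-Hochberg adjustment over all 13249 genes and a threshold of 0.05. CPM are counts per 1000000 on the TMM scale. Fold changes are log2, with SE from the fit. Alternatives were DESeq2 size factors, plain library totals, the DESeq2 1.42.0 Wald test, no filter, a mean of at least 10 counts, an adjusted p under 0.01, leaving out the 20 most abundant and the mitochondrial genes, a replicate block, only the 8 libraries of a contrast, and leaving out each library. The named genes were the members, the 10 listed regulators, up to 5 of the largest called rises and falls per line among the other pathway genes, the other aldo-keto reductases, up to 3 per direction and line of the other antioxidant genes, and the 5 genes nearest to the AKR1C1 profile. EPCAM, CDX2, VIL1, CD68, COL1A1, PDGFRB, PTPRC and CD3E are named from marker lists. Symbols came from a gene name table, and 3 further listed genes (AKR1C8P, SOD2 and PECAM1) were not matched.

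Windows, coding sequences and positions used GRCh37 with GENCODE annotation, and promoters used RefSeq GRCh38.p14. The fit was tested on simulated counts with known changes. At 8269406 to 11110814 counts per library, genes with few counts, such as AKR1B10 in HT55 DMSO, have wide errors. Same-numbered libraries deviated together with a correlation over 0.1 in 1 of 4 pairs in each line. This was replicate 3 in both, at 0.12 in HT55 and 0.10 in SW948. The labels state no pairing, and the main fit did not pair the libraries.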

Additional observations from a re-analysis of the deposited data

Results flagged for a closer look

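SW948 DMSO replicate 3 stood apart from the other three libraries of its group for AKR1C1 (11.6 CPM) and AKR1C2 (11.1 CPM). The gap to its nearest neighbor was 0.882 of the group's range for AKR1C1 and 0.917 for AKR1C2, above Dixon's 95% critical value for 4 samples. These were 2 of 36 groups examined (9 genes in 4 groups), and chance marks about 1 in 20. Both values come from the same library, so they are not independent observations. The same library was also highest of its group for AKR1C3 (68.6 CPM), NQO1 (449 CPM), GCLC (151 CPM) and HMOX1 (4.34 CPM). With it left out, the SW948 change was 5.82 for AKR1C1 and 4.19 for AKR1C2.

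The change with itraconazole differed between the lines by a tested interaction, with SW948 minus HT55 at 1.91 on the log2 scale for AKR1C2, 1.39 for AKR1C3, 0.44 for NQO1, 0.72 for GCLC, 1.47 for GCLM and 1.24 for TXNRD1. Of these 6 genes, GCLM (24.1 against 93.7 CPM), AKR1C3 (61.5 against 90.7 CPM) and NQO1 (405 against 465 CPM) had lower DMSO means in SW948 than in HT55, and AKR1C2, GCLC and TXNRD1 had higher ones. The interaction passed above 0 for 24.8% of all genes tested and below 0 for 29.1%. It is built from the within-line changes on which the members were chosen, so its p-values are not fully independent of that choice.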

How the results depend on the processing

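The 5 counts of genes called stayed within 1.5 times of their value under all alternatives run, and all 783 alternative values of the members' 5 differences kept their direction. Among the 46 other NRF2 pathway genes, the number that fell in SW948 was 7 and became 11 on plain library totals. That scaling lowers all changes together, to a median of -0.17 in HT55 and -0.36 in SW948, and on it NFE2L2, KEAP1 and PGD turned negative in SW948. The NQO1 difference between the DMSO groups lost its call on plain totals (-0.00, adjusted p = 0.96) and without the low-count filter (adjusted p = 0.0537). The cause was not tested. Leaving out single libraries gave an AKR1C1 interaction of 0.48 to 1.13 and an AKR1B10 interaction of 0.78 to 1.75.

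With the replicate block, the interactions of AKR1C1 (0.75) and AKR1B10 (1.49) passed the threshold, and so did the HMOX1 difference between treated lines (-0.50). No other call of a member changed, and the same-numbered libraries correlated between -0.02 and 0.12, so the block is not taken as a stronger test. Low counts limit AKR1B10 in HT55 DMSO (9 counts) and AKR1B15, and reads that fit several AKR1C copies were not counted at all.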
